A study of Rattus norvegicus with 20 samples.

Results

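Among 13429 genes with a mean of at least 1 count per 1000000 counts of a library (CPM) in the rat subiculum, 174 were lower in the ventral part 24 hours after a seizure protocol while their mean in the dorsal part stayed within set limits. They were chosen from the values themselves. For each of the 174, all 5 ventral libraries taken after the protocol lay below all 5 ventral control libraries, the ventral control mean was at least 1.4 times the ventral mean after the protocol, and the dorsal mean after the protocol was between 0.8 and 1/0.8 times the dorsal control mean. The table held 32883 genes in all. The first and second steps of the rule left 469 genes, or 3.49% of those with at least 1 CPM, and the 1.4-fold step left 256. Of these 256 genes, 70 were then set aside because the dorsal ratio was under 0.8 and 12 because it was over 1/0.8.

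The 20 libraries came from wild-type Wistar rats aged 3 months. Control rats gave 5 libraries of the dorsal and 5 of the ventral subiculum, and rats sampled 24 hours after the protocol, called preconditioning in the labels, gave 5 of each. The series title describes acute seizures evoked by electrical stimulation of the perforant pathway. Tissue was cut from frozen sections by laser microdissection, so each library holds the RNA of all cell types in the cut area, and fewer cells of a type and less RNA per cell cannot be told apart. The labels do not say which libraries came from 1 animal or whether controls carried electrodes. The p-values set differences against the spread between these libraries. The main fits of all 20 libraries treated them as separate samples, although dorsal and ventral ones may share animals.

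The subiculum is the main output region of the hippocampus and lies between area CA1 and the retrohippocampal cortex. Its principal cells are glutamatergic pyramidal neurons, many of which fire in bursts, and the perforant pathway from the entorhinal cortex reaches both the subiculum and the dentate gyrus. The dorsal part projects mainly to retrosplenial and other cortical and thalamic targets involved in spatial processing. The ventral part projects mainly to the hypothalamus, amygdala, nucleus accumbens and prefrontal cortex, which are involved in stress and emotional responses. The region is also a known site of abnormal discharge in temporal lobe epilepsy.

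Genes are given by their Ensembl rat identifiers. None of the 32883 identifiers could be paired with a symbol in the RefSeq table of 47357 genes used here (0 matched), so no function, cell type or genome position is stated for any member, and no promoter sequence is shown. The labelled tissue was not checked against marker genes for the same reason, and the part of a shift in cell types in the values below was not tested. Library totals ranged from 3087146 counts in ventral control 1 to 20463678 in ventral control 4, so that 3 counts corresponded to 0.972 CPM in the smallest library and to 0.147 CPM in the largest. Dorsal control 4 and ventral control 2 agreed least with the rest of their groups, with median correlations across genes of 0.964 and 0.970 on a log2 scale where the other 18 libraries had 0.978 to 0.988. Without these libraries in turn, the rule found 163 and 344 genes in place of 174.

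Most members, like most genes with at least 1 CPM, were of low to moderate abundance. Their mean level over the 20 libraries had a median of 16.0 CPM, with quartiles of 5.89 and 53.9 CPM and a highest value of 617 CPM. Over all 13429 genes the median was 24.6 CPM and the highest value 20565 CPM, far above the most abundant member. Of the 174 members, 38 lay between 1 and 5 CPM, 56 between 5 and 20 CPM, 54 between 20 and 100 CPM and 26 above 100 CPM. In the ventral controls, 172 of the members averaged at least 20 counts.

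The ventral differences that chose the members were mostly modest. The ratio of the ventral control mean to the ventral mean after preconditioning had a median of 1.6, with quartiles of 1.47 and 1.82, and reached 3.37. It was between 1.4 and 1.5 in 53 members (30.5%) and at least 2 in 25 members (14.4%). The median ratio was highest in the least abundant members and similar in the others, although the single largest ratio belonged to a member between 20 and 100 CPM. It was 1.89 in the 38 members between 1 and 5 CPM, 1.56 in the 56 between 5 and 20 CPM, 1.56 in the 54 between 20 and 100 CPM and 1.5 in the 26 above 100 CPM. The rule used this ratio, so its order by abundance is a description of the choice.

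The groups were often separated by a narrow gap. The lowest ventral control exceeded the highest ventral preconditioning library by a median factor of 1.13, with quartiles of 1.05 and 1.24. In 114 of the 174 members (65.5%) that gap was within the 95% counting error of the pair of libraries that bounded it, and 15 members had fewer than 10 counts in ventral control 1. Ventral control 2 was the lowest control for 61 members (35.1%), ventral control 4 for 38, ventral control 1 for 29, ventral control 3 for 24 and ventral control 5 for 22. Ventral preconditioning 5 was the highest treated library for 49 members, ventral preconditioning 2 for 46, ventral preconditioning 1 for 30, ventral preconditioning 4 for 28 and ventral preconditioning 3 for 21. Each of the 10 ventral libraries therefore set the edge of its group for some members, and ventral control 2 did so most often among the controls.

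Values just inside and just outside each limit of the rule were close together. The smallest ventral ratios among the members were 1.4003 and 1.4027, and the nearest genes left out had 1.3985 and 1.3978. At the lower dorsal limit the members nearest to it had ratios of 0.8022 and 0.8026, and the nearest genes left out had 0.7994 and 0.7981. At the upper dorsal limit the nearest members had 1.245 and 1.223 and the nearest genes left out 1.272 and 1.287. The members nearest to the limit of expression averaged 1.01 and 1.10 CPM, and the genes below it 0.903 and 0.795 CPM. The lower dorsal limit cut through a dense part of the distribution and the upper one through a sparse part.

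The list also depended on how libraries were scaled. With library sizes adjusted by TMM, a scaling that equalises the bulk of the genes, the rule found 116 genes, of which 106 were among the 174. Of the 68 members lost, 28 had overlapping ventral groups, 28 fell short of 1.4-fold and 25 left the dorsal limits, with some counted under more than 1 reason. All 174 members kept a lower ventral mean after preconditioning on that scale, with a median ratio of 1.56. Leaving out ventral control 2 raised the number of genes found from 174 to 344, of which 166 were members, and the other 19 omissions of a single library gave 156 to 232. Any omission of a ventral library loosens the requirement that the ventral ranges be apart.

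**Figure D1:**
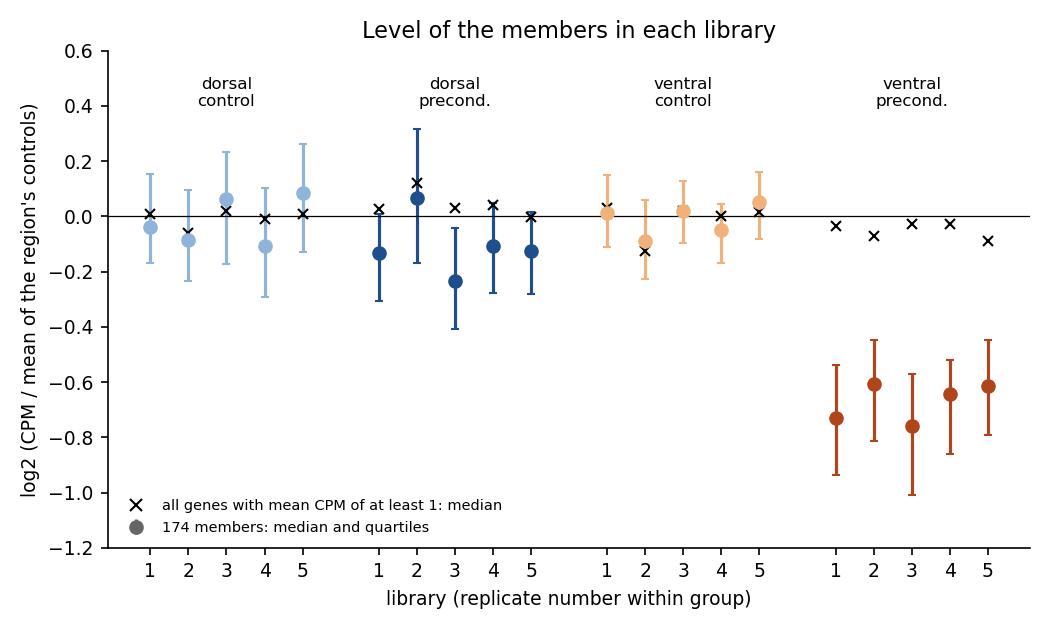
Level of the 174 members in each of the 20 libraries, as log2 of CPM over the mean of the controls of the same region with 0.5 CPM added to both. Coloured points are medians over the members with their quartiles, and crosses are medians over the 13429 genes with at least 1 CPM on average; treated ventral libraries lie between -0.76 and -0.61 by the choice of members, and 4 of the 5 treated dorsal libraries lie below 0.

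Library by library, the size of the ventral difference was similar in the 5 treated libraries. On the log2 scale, against the mean of the ventral controls, the median over the members was -0.73 in ventral preconditioning 1, -0.61 in 2, -0.76 in 3, -0.64 in 4 and -0.61 in 5. The same median over all 13429 genes was between -0.09 and -0.03 in these libraries. In the ventral controls the members' median was 0.01 in library 1, -0.09 in 2, 0.02 in 3, -0.05 in 4 and 0.05 in 5, and in ventral control 2 the median over all genes was also low, at -0.12. The values describe how the members were chosen and test nothing.

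In the dorsal subiculum the members were not centred on no change. The dorsal ratio of means had a median of 0.933 over the members, with quartiles of 0.861 and 1.02, and was below 1 in 121 of 174 (69.5%). Among all 11182 genes whose dorsal ratio was within the same limits the median was 1.03, and 4507 (40.3%) were below 1. In 64 members (36.8%) the ratio was between 0.8 and 0.9, against 1221 (10.9%) of the 11182. With TMM-adjusted library sizes the ratio was below 1 in 143 of the 174 members, with a median of 0.894. In most members the dorsal mean after preconditioning was thus slightly below the dorsal control mean, in the direction of the ventral difference. The rule bounded this ratio, the members share the same libraries, and edgeR called 0 of 168 in the dorsal test. The shares therefore describe group means and test nothing.

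On CPM from library totals the members' median lay below the dorsal control mean in 4 of the 5 treated libraries. Against the mean of the dorsal controls, the members' median was -0.13 in dorsal preconditioning 1, 0.07 in 2, -0.23 in 3, -0.11 in 4 and -0.13 in 5 on the log2 scale. Over all genes the corresponding medians were 0.03, 0.12, 0.03, 0.04 and 0.00. Dorsal preconditioning 2, the library where the median over all genes was highest, was the only treated dorsal library in which the members' median was above 0, and there it was still below the median over all genes. With TMM-adjusted library sizes the medians were -0.17, -0.04, -0.29, -0.16 and -0.14, all 5 below 0. The dorsal controls had medians of -0.04, -0.09, 0.06, -0.11 and 0.08 for libraries 1 to 5, so that dorsal controls 2 and 4 were at the level of dorsal preconditioning 4. Deviations from the group means had r above 0.1 across genes in 9 of 10 comparisons of dorsal and ventral libraries of the same number. Libraries of different numbers were not compared. Ventral control 2 and ventral preconditioning 2, from different rats, also had r of 0.39, so these values do not show a shared animal. The dorsal values may not be separate from the ventral ones, which was not tested.

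**Figure D2:**
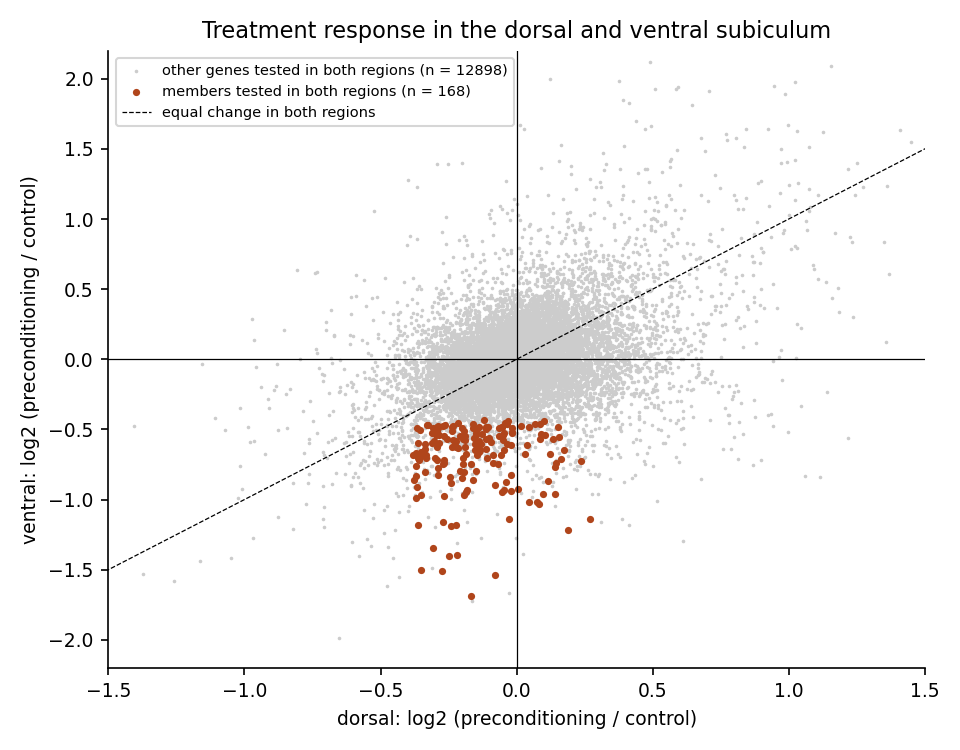
Log2 ratio of preconditioning to control estimated by edgeR in the dorsal (x axis) and ventral (y axis) subiculum, for 168 members (red-brown points) and 12898 other genes tested in both regions (grey), with 35 of the grey points outside the axes. The lower edge of dorsal values and the upper edge of ventral values of the members are set by the rule; 140 of the 168 members lie to the left of 0.

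A model across all genes gave the precision of these changes. In edgeR's quasi-likelihood test of the ventral treatment, 121 of 174 members were called lower at an adjusted p-value under 0.05, where 2.12% of the 13291 genes tested were called lower. The rule used this contrast, so nothing is read from that share. The ventral log2 change of the members had a median of -0.64, with a median standard error of 0.15, and the median over all genes tested was -0.01. For the other 53 members the ventral difference is a separation of ranges that did not pass the adjusted test.

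In the dorsal part, 168 of the members passed the filter on low counts and were tested. None was called by edgeR (0 of 168, where 0.271% of the 13647 genes tested were called). DESeq2 called 0 of 174, where it called 167 of the 20603 genes tested. So few genes were called in all that 0 calls tell little about the members. In edgeR, 25 members, all lower, had an unadjusted p-value under 0.05. The background of lower genes at that unadjusted level was 4.26%. The dorsal log2 estimate had a median of -0.17 over the members, with a median standard error of 0.18, and was below 0 in 140 of 168 (83.3%), against 51.6% of all genes tested. These estimates come from a contrast that the rule bounded and are given as a description.

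The intervals show how loosely a flat dorsal response was known. The 95% interval of the dorsal log2 change held 0 for 143 of 168 members. It lay wholly within the dorsal limits of the rule for 8 members and reached a fall of 1.4-fold or more for 111 (66.1%). In 52 members (31.0%) it also held the ventral estimate of the same gene. A dorsal fall of the size required in the ventral part was therefore not distinguishable from no change for most members at this number of libraries.

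The difference between the regional responses, fitted as an interaction over all 20 libraries with no replicate block, did not pass for any member in edgeR. At an adjusted p-value under 0.05 edgeR called 0 of 174 members as more negative in the ventral part, where 0.0071% of the 14087 genes tested were called in that direction. The interaction estimate was negative for all 174, as the rule arranges, with a median log2 difference of -0.50 and a median standard error of 0.23. In 89 members, all negative, the unadjusted p-value was under 0.05, where 3.26% of all genes were negative at that level. With DESeq2, 6 members were called as more negative, where 0.0599% of the 21710 genes tested were. With the replicate number as a block in edgeR, 5 members were called, where 0.114% of genes were. Leaving out dorsal control 4, ventral control 2, ventral preconditioning 2 or ventral preconditioning 5 gave 1 member each in edgeR without the block. The rule used this contrast, and the number of members past the adjusted test, between 0 and 6, depended on the model. For most members a fall in the ventral part with a flat dorsal part thus describes group means.

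ENSRNOG00000012181 had the smallest interaction p-value among the members and was picked after its values were seen. Its level in the ventral controls was 152, 212, 147, 158 and 124 CPM in libraries 1 to 5. After preconditioning the ventral libraries measured 76.6, 94.7, 49.2, 66.9 and 96.4 CPM. The dorsal controls measured 64.4, 60.5, 68.7, 58.1 and 58.9 CPM, and the dorsal libraries after preconditioning 55.2, 78.9, 72.5, 71.6 and 64.1 CPM. The ventral groups were apart, with ventral control 2 highest, while the dorsal groups overlapped and the treated ventral libraries moved into the range of the dorsal ones or near it. The ventral mean went from 159 ± 32.7 to 76.8 ± 19.8 CPM and the dorsal mean from 62.1 ± 4.38 to 68.5 ± 9.10 CPM (SD, n = 5 each). On the log2 scale the ventral response minus the dorsal one was -1.10 (SE 0.23, edgeR adjusted p = 0.0782). This difference passed in DESeq2 (adjusted p = 0.00638) and in edgeR with the replicate block (adjusted p = 0.0160). It also passed in edgeR without ventral preconditioning 2 (adjusted p = 0.0480) or without ventral preconditioning 5 (adjusted p = 0.0253). In the other 22 settings tried it did not pass. Without ventral controls 2 and 4, a setting added after the data had been seen, it was -0.88 (edgeR adjusted p = 0.192). The difference is a value that the rule helped to choose.

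The ranges of the dorsal groups were apart for 2 members, both lower after preconditioning, where 0.573% of genes with at least 1 CPM were apart in that direction, and both were named after their values were seen. ENSRNOG00000049410 measured 82.2, 97.7, 71.2, 79.1 and 77.8 CPM in dorsal controls 1 to 5 and 62.7, 70.8, 57.4, 70.7 and 65.8 CPM in the treated dorsal libraries. In the ventral part it measured 45.7, 38.3, 41.4, 47.5 and 40.4 CPM in controls and 24.3, 26.7, 18.8, 32.0 and 27.6 CPM after preconditioning. Its treated libraries were below the controls in both regions, and its log2 change was -0.38 (SE 0.11) in the dorsal and -0.69 (SE 0.13) in the ventral part. The dorsal change was not called (edgeR adjusted p = 0.248).

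ENSRNOG00000020185 was the other. It measured 169, 169, 199, 168 and 232 CPM in dorsal controls 1 to 5 and 154, 167, 140, 134 and 167 CPM in the treated dorsal libraries. The ventral controls measured 324, 300.2, 331, 303 and 476 CPM and the treated ventral libraries 209, 225, 184, 209 and 203 CPM. Control 5 was the highest library of its group in both regions. The log2 change was -0.36 (SE 0.11) in the dorsal part, not called (edgeR adjusted p = 0.297), and -0.72 (SE 0.12) in the ventral part.

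The largest ventral ratios were examined in single libraries, for the 2 members that led among those with a mean of at least 20 counts in ventral controls. ENSRNOG00000025110 measured 58.6, 21.0, 35.6, 60.4 and 49.5 CPM in ventral controls 1 to 5 and 10.98, 14.6, 9.19, 15.4 and 16.6 CPM in the treated ventral libraries. Ventral control 2 was far lower than the other controls but remained above every treated library. The mean went from 45.0 ± 16.7 to 13.4 ± 3.14 CPM (SD, n = 5 each), a ratio of 3.37 and a log2 change of -1.69 (SE 0.25).

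In the dorsal part the same gene varied widely within both groups. The dorsal controls measured 18.1, 9.49, 29.1, 22.2 and 25.4 CPM, and the treated dorsal libraries 19.9, 36.8, 13.5, 12.3 and 15.4 CPM. Dorsal preconditioning 2 was the highest dorsal library and held up the treated mean of 19.6 ± 10.05 CPM, which was close to the control mean of 20.8 ± 7.54 CPM. The log2 change was -0.17 with a 95% interval from -0.81 to 0.48, so the near-equal dorsal means were known to within a wide range.

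ENSRNOG00000001915 had the second largest ratio, 3.19. Ventral controls 1 to 5 measured 5.83, 5.34, 5.20, 3.81 and 4.76 CPM, and the treated ventral libraries 0.538, 3.46, 1.01, 1.02 and 1.81 CPM. Ventral preconditioning 2 lay just under the lowest control while the other treated libraries were well below. The gene was nearly absent from the dorsal libraries, with at most 3 counts in any of the 10. Its dorsal ratio of 1.15 rested on 5 counts in the controls and 4 after preconditioning, so that a flat dorsal response could not be judged at this depth.

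**Figure D3:**
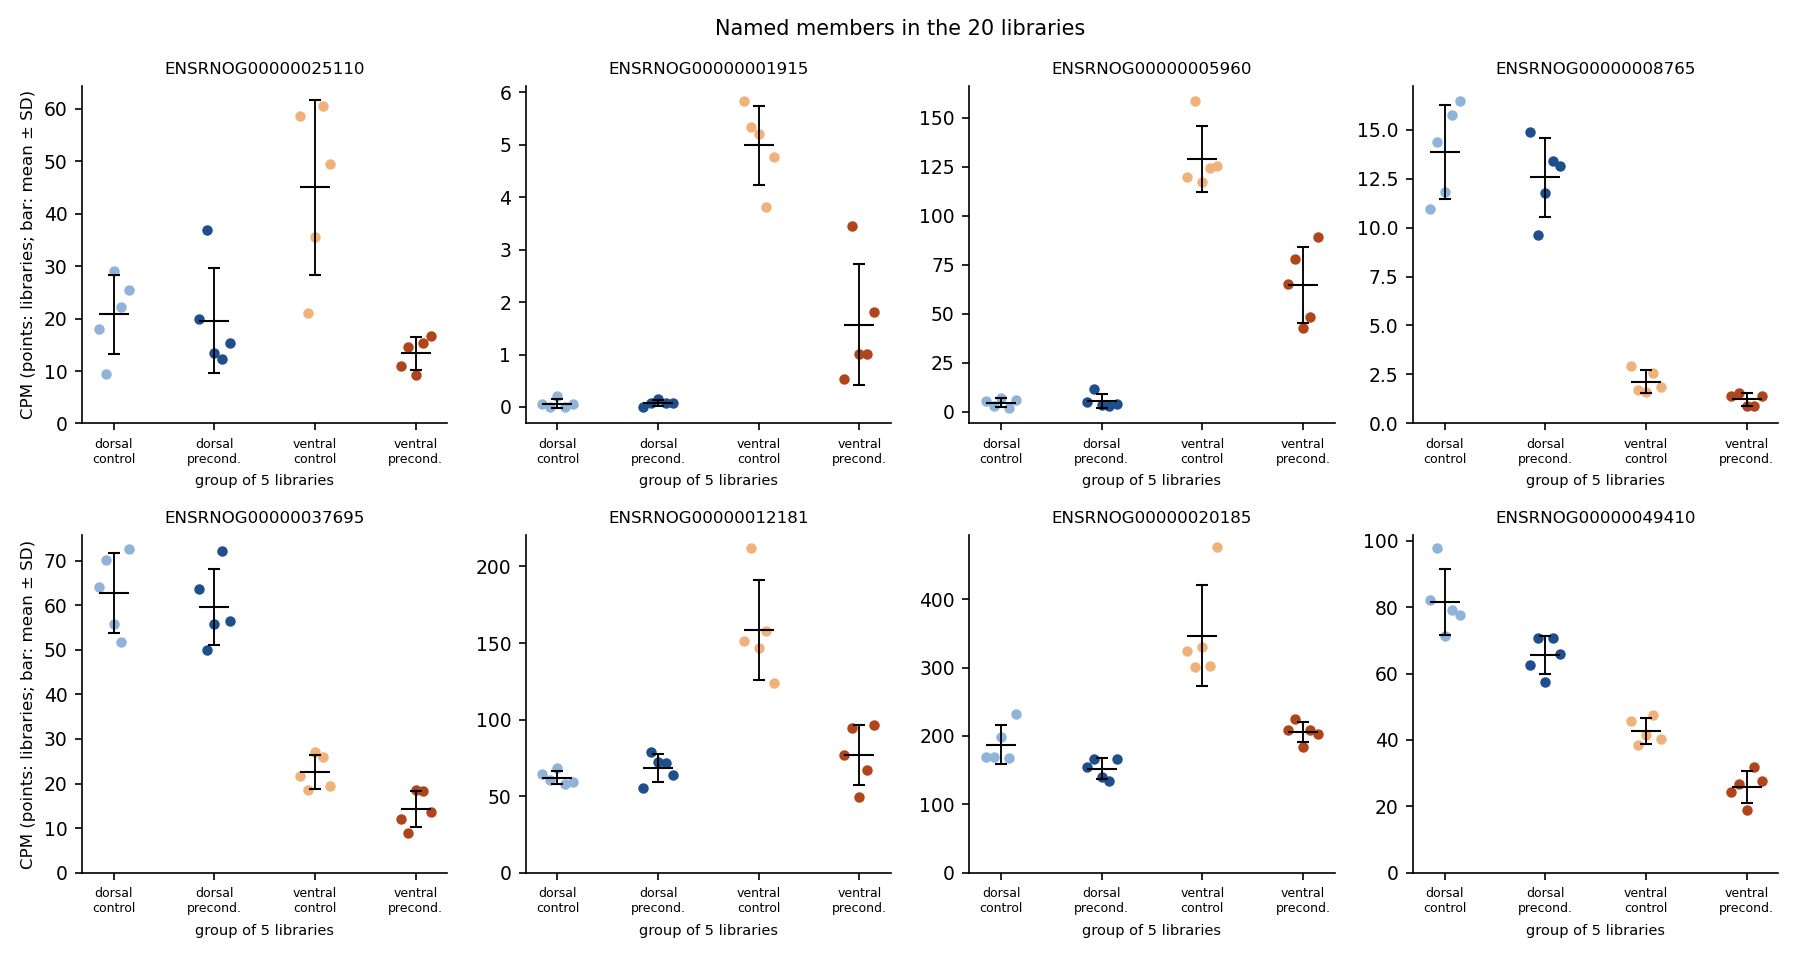
CPM of 8 members in the 20 libraries, by group of 5, with the mean and SD as bars and each library as a point. The ventral control points lie above the treated ventral points in every panel, and the dorsal level ranges from near 0 in ENSRNOG00000001915 to several times the ventral level in ENSRNOG00000008765.

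The rule did not compare the regions with each other, but the members' regional difference was measured in the same libraries. The ventral level averaged over both conditions was compared with the dorsal level averaged over both conditions in 1 fit of all 20 libraries. In a balanced design this average is orthogonal to the mean treatment changes that the rule used. The rule also asked for ventral ranges that did not overlap, which depends on level and spread. The comparison was therefore not independent of the choice, and the shares below are a description. The choice was also not neutral between the regions, since a member had to be measurable in the ventral part and could be nearly absent from the dorsal part. Of 174 members, 119 (68.4%) were called at an adjusted p-value under 0.05 in edgeR, where 41.5% of the 14087 genes tested were called. Of these, 73 were higher in the ventral part, where 20.1% of all genes were called in that direction, and 46 were higher in the dorsal part, where 21.3% were. Among genes with a mean of at least 1 CPM in each region, a limit added after the data had been seen, 67 of 167 members were higher in the ventral part (40.1%, against 20% of genes) and 46 higher in the dorsal part (27.5%, against 20.7%). How far the ventral values used by the rule bear on the remaining excess was not tested. The median log2 difference, ventral minus dorsal, was 0.17 over the members and 0.03 over all genes. Its size regardless of direction had a median of 0.47 over the members and 0.24 over all genes, while the median standard error was 0.12 in both. A call with at least a 2-fold difference was reached by 36 members (20.7%), where 9.84% of all genes reached it. The list was drawn up with results of these data known, and leaving out any 1 library gave 113 to 121 members called. All 10 ventral libraries lay above all 10 dorsal libraries for 21 members (12.1%, against 3.32% of genes with at least 1 CPM), and all lay below for 7 (4.02%, against 4.73%). These shares and the 2-fold one were taken over all 174 members, not only the 167 with at least 1 CPM in each region.

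The 73 members with a higher ventral level made up 42.0% of the set. Their median fold between the regions was 1.79, with quartiles of 1.46 and 2.60, and 29 of them differed at least 2-fold. In controls their ventral mean was a median of 2.36 times the dorsal mean, and after preconditioning 1.4 times. The ventral mean was still above the dorsal one after preconditioning in 68 of the 73. The ventral ratio of control to preconditioning had a median of 1.64 in this group and the dorsal ratio of preconditioning to control a median of 0.968. In these genes, then, the regional difference was smaller after preconditioning, and the size of that narrowing follows from the rule. The class was set by the average over both conditions, treated libraries included. A ventral mean still above the dorsal one after preconditioning is therefore favoured by the classing and is a description.

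ENSRNOG00000005960 had the second largest regional difference of this group. The ventral controls measured 120, 158, 117, 124 and 126 CPM in libraries 1 to 5, and the treated ventral libraries 65.3, 77.8, 42.6, 48.5 and 89.3 CPM. The dorsal controls measured 5.67, 3.12, 7.12, 2.18 and 6.03 CPM, and the treated dorsal libraries 4.94, 11.8, 3.52, 3.12 and 4.24 CPM. Every ventral library was above every dorsal one, and dorsal preconditioning 2 was the highest dorsal library. Averaged over both conditions the ventral level was 17.4-fold higher, a log2 difference of 4.12 (SE 0.22, edgeR adjusted p = 2.02e-12). The ventral mean was 129 ± 16.7 CPM in controls and 64.7 ± 19.5 CPM after preconditioning (SD, n = 5 each), and the dorsal means were 4.82 ± 2.08 and 5.52 ± 3.56 CPM. The level in ventral libraries thus stayed far above the dorsal one.

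ENSRNOG00000001915, with the largest ventral excess among the called members, had 351 counts in the 10 ventral libraries and 9 in the 10 dorsal ones. Per count sequenced this was a ratio of 42.9, with an exact 95% interval of 22.4 to 94.7 that covers counting error only. It passed the limit of 1 CPM only through the ventral libraries, so its regional difference is a description. Its level in the dorsal libraries was at the limit of detection in both conditions.

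The 46 members with a higher dorsal level made up 26.4%. Their median fold between the regions was 1.46, with quartiles of 1.32 and 1.78, and 7 of them differed at least 2-fold. In controls their ventral mean was a median of 0.836 times the dorsal mean, and after preconditioning 0.556 times. The ventral ratio of control to preconditioning had a median of 1.53 in this group and the dorsal ratio of preconditioning to control a median of 0.908. Taken as a fold in either direction, the regional difference of these genes was wider after preconditioning in all 46. In 1 of them the ventral mean was above the dorsal mean in controls and below it after preconditioning. A lower ratio of ventral to dorsal means after preconditioning again follows from the rule.

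ENSRNOG00000008765 differed most in this direction. The dorsal controls measured 10.9, 14.4, 11.8, 15.8 and 16.4 CPM and the treated dorsal libraries 14.9, 9.59, 11.7, 13.4 and 13.1 CPM. The ventral controls measured 2.92, 1.72, 1.63, 2.59 and 1.85 CPM and the treated ventral libraries 1.3993, 1.54, 0.896, 0.888 and 1.3996 CPM. The dorsal level was 8.06-fold higher over both conditions, with a log2 difference of -3.01, ventral minus dorsal (SE 0.15, edgeR adjusted p = 4.92e-13). Its ventral groups were apart by a small margin, between 1.63 CPM in ventral control 3 and 1.54 CPM in ventral preconditioning 2, which rest on 10 and 25 counts. The ventral change was not called (log2 -0.70, SE 0.28, edgeR adjusted p = 0.190).

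ENSRNOG00000037695 was the next. The dorsal controls measured 64.0, 70.0, 55.7, 51.7 and 72.5 CPM and the treated dorsal libraries 63.7, 49.97, 55.8, 72.2 and 56.5 CPM. The ventral controls measured 21.7, 18.5, 26.98, 26.0 and 19.5 CPM and the treated ventral libraries 12.1, 8.95, 18.5, 18.3 and 13.6 CPM. The dorsal groups overlapped throughout, and the ventral groups almost touched, at 18.51 CPM in ventral control 2 and 18.48 CPM in ventral preconditioning 3. Over both conditions the dorsal level was 3.45-fold higher, a log2 difference of -1.79 (SE 0.12, edgeR adjusted p = 7.85e-11). The ventral change of this gene was not called either (log2 -0.64, SE 0.18, edgeR adjusted p = 0.0617).

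The remaining 55 members (31.6%) were not called between the regions. In 50 of them the ventral mean was above the dorsal mean in controls, and in 45 it was above in controls and below after preconditioning. The ventral mean was a median of 1.28 times the dorsal mean in controls and 0.798 times after preconditioning. Because the choice asked for high ventral controls and low treated ventral libraries, a change of order is what the rule favours in genes with similar levels in both regions. ENSRNOG00000025110, described above, belonged here, with an average regional log2 difference of 0.27 (SE 0.21, edgeR adjusted p = 0.316).

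**Figure D4:**
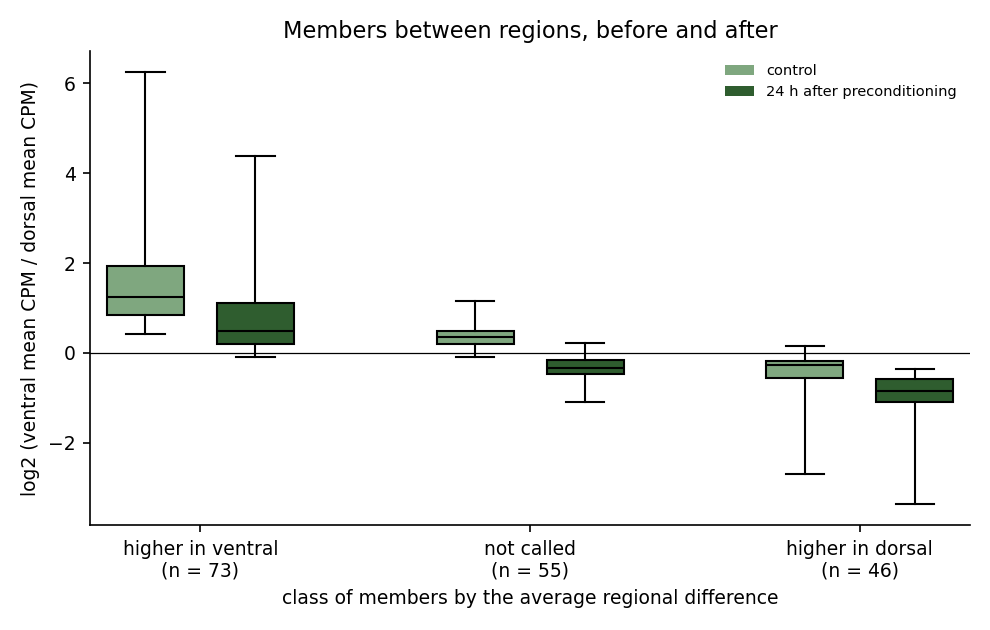
Log2 ratio of the ventral to the dorsal mean CPM in controls and 24 hours after preconditioning, for the 73 members higher in the ventral part, the 55 not called and the 46 higher in the dorsal part. Boxes span the quartiles with the median as a line and whiskers reach the lowest and highest member; the downward step from control to preconditioning is set by the rule, while the class of a member comes from the average over both conditions.

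Across all members the ventral mean was above the dorsal mean in 124 of 174 in controls (71.3%, against 57.8% of genes with at least 1 CPM) and in 73 after preconditioning (42.0%, against 48.2%). In 51 members (29.3%, against 16.4%) the order of the regional means reversed from above to below. These shares use the ventral values that chose the members and are a description.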

How the data were processed

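The authors deposited a table of raw counts per Ensembl rat gene identifier, with 1 column for each of 20 libraries (4 groups of 5). The library kit, per the labels' protocols, was TruSeq Stranded mRNA LT. The submitters' processing notes name STAR, DESeq2 and the build Rnor_5.0, with no roles. The counting tool, annotation and strand setting are not given in the sources used here, so overlapping genes and near-identical copies may share reads. Groups and replicate numbers came from sample titles. Treated columns begin with e where titles begin with p, and were matched by number and region letter.

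Members were found on CPM from column sums. Tests used edgeR 4.0.16 in R 4.3.3 (filterByExpr, TMM, robust quasi-likelihood F-test) with Benjamini-Hochberg adjustment over all genes tested. Treatment contrasts used the 10 libraries of a region. The regional average and the interaction used all 20. The SE is the log2 change divided by the square root of F. All library pairs within a group differed beyond sampling noise (chi-square per degree of freedom from 3.37 to 60.9). The code was tested on simulated data. Alternatives were DESeq2 1.42.0, its size factors, count filters, the replicate block, 1 common fit, single libraries left out, and, added after the data had been seen, ventral controls 2 and 4 left out and a limit of 1 CPM in each region. Figures used matplotlib 3.10.9.

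The members and the rules were chosen with earlier results of these data known. With no symbols, the rule allowed 2 identifiers per direction: the 2 largest ventral ratios (at least 20 counts on average in ventral controls) and the 2 largest called regional differences. 3 more were named after their values were seen. The planned marker lists could not be applied without symbols.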

Additional observations from a re-analysis of the deposited data

Results flagged for a closer look

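In 36 groups of 5 values searched (the 8 named members and the members' median in each of the 4 groups), 3 held a library far from the rest of its group, where chance gives about 1.8. ENSRNOG00000005960 measured 11.8 CPM in dorsal preconditioning 2, with the other treated dorsal libraries between 3.12 and 4.94 CPM. The same gene measured 158 CPM in ventral control 2, against 117 to 126 CPM in the remaining controls of that region. ENSRNOG00000020185 measured 476 CPM in ventral control 5, with the others between 300.2 and 331 CPM.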

How the results depend on the processing

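The number of members called between the regions, 119, stayed between 113 and 121 with single libraries left out and within 1.5 times under all other settings tried. The members called in the ventral treatment, 121, numbered 84 to 127 with single libraries left out. The rule found 86 genes at a limit of 1.6-fold and 88 with narrower dorsal limits (from 0.9 to its reciprocal, rounded). It found 156 to 344 with single libraries left out (344 without ventral control 2). Without ventral controls 2 and 4, a setting added after the data had been seen, it found 510, of which 167 were members. Leaving out ventral libraries loosens the requirement that the ventral ranges be apart. Ventral controls 2 and 4 were the lowest control most often (61 and 38 members), so a longer list was favoured in advance. In the interaction, 6 members passed with DESeq2, 5 with the replicate block and 0 to 1 with single libraries left out (1 without dorsal control 4, ventral control 2, ventral preconditioning 2 or ventral preconditioning 5), and 2 were called by both DESeq2 and the block. Over all genes the interaction called 11 in the main analysis, 54 with DESeq2, 62 with the replicate block, 6 without ventral controls 2 and 4, and 6 to 20 with single libraries left out. The ventral treatment called 672 genes, 1051 with DESeq2, 1261 with the replicate block and 432 to 1029 with single libraries left out (1029 without ventral control 2, 432 without ventral control 5 and 446 without ventral preconditioning 4). In a treatment contrast within a region the block matched control and treated libraries by number only. Control and treated libraries came from different rats, so the count with the block is not a paired result. The dorsal treatment called 37 genes, 167 with DESeq2, 97 in 1 fit of all libraries and 15 to 50 with single libraries left out (15 without dorsal preconditioning 3 and 21 without dorsal preconditioning 1), and of the members 0 to 1. For these the cause was not tested. Deviations of dorsal and ventral libraries of the same number were correlated above 0.1 in 9 of 10 pairs. Libraries of different numbers were not compared, so these values do not show which libraries share an animal. The criterion for pairing, r above 0.1 in every pair, was not met and the analysis without the block was kept. The r was from 0.20 to 0.39 between dorsal and ventral controls and from 0.04 to 0.37 between dorsal and ventral treated libraries. Between control and treated libraries of a region, from different rats, it was from -0.22 to 0.39. The block changed the number of members called between the regions to 123. Sums of cell type markers had been planned and were not run, because no identifier had a symbol.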
